A study of Mus musculus with 4 samples.

Results

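The core circadian clock genes Per1, Per2, Per3, Arntl, Clock, Npas2, Nr1d1, Nr1d2, Dbp and Ciart were examined in whole transcriptome sequencing of mouse cortex. They are 10 of the 18067 genes counted, were taken by name from a fixed list, and were carried by 21 of the 37539 transcripts in the table. The cortex came from 2 APPswe/PS1ΔE9 double transgenic mice (APP), a line that carries 2 human transgenes and models the amyloid deposition of Alzheimer's disease (AD), and from 2 wild type mice (WT). All were male, 12 months old, of C57BL/6 background and housed singly under day and night lighting, and were killed by cervical dislocation under anesthesia. The controls were C57BL/6J mice and are not said to be littermates, and the transgenes of this line are driven by the mouse prion promoter. Neither the labels nor the methods give the hour at which tissue was taken, so that genotype and time of collection cannot be told apart here.

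In the mammalian clock, ARNTL (also called BMAL1) pairs with CLOCK or, in forebrain, NPAS2, and the pair binds E-boxes to switch on the Period and Cryptochrome genes, whose proteins return to the nucleus and inhibit it. The same pair drives Nr1d1 and Nr1d2, whose products REV-ERBα and REV-ERBβ repress Arntl through RORE elements, and it drives Dbp, an activator of D-box genes, and Ciart, a repressor of ARNTL and CLOCK. Transcripts of the E-box genes and of Arntl therefore peak at opposite times of day, and Dbp and Nr1d1 RNA are widely used as readers of clock phase in tissues outside the suprachiasmatic nucleus, cortex included. In neurons, Per1 and Per2 are also induced by activity and by glucocorticoids.

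The promoters of these genes were searched for the letters of such elements. RefSeq sequences of GRCm38.p6, from 250 bases before to 50 bases after a transcription start, were used for 9 of the 10 genes, all but Per2, at 13 starts, and were searched on both strands for the E-box CACGTG, the D-box TTATGTAA, the cyclic AMP response element (CRE) TGACGTCA and the RORE core AGGTCA, and no match overlapped another. An E-box was found in 2 of the 13 promoters, those of Per1 and Ciart, and in 7.15% of all 32817 promoters of this length. The D-box was found in 1 of the 13, that of Per3, and in 0.935% of all promoters. The RORE core was found in 4 of the 13, of Per1, Arntl, Clock and Nr1d2, and in 16.3% of all promoters, and the CRE in 0 of the 13 and in 1.79% of all. The promoters of Npas2, Nr1d1 and Dbp held no match. Elements outside these bases or with other letters were not searched. The genes with 2 or more matches are printed here with a promoter of Arntl, the gene that the REV-ERB proteins repress, which was picked from those with 1 match after the matches were seen. Capitals mark the matches, each line runs along the strand of its gene, and a match is a description of the letters only. Ciart, with 3 E-boxes, lies on chromosome 3 (chr3:95882179-95882478, minus strand), Per1 on chromosome 11 (chr11:69098699-69098998, plus strand), Per3 on chromosome 4 (chr4:151044616-151044915, minus strand) and the second start of Arntl on chromosome 7 (chr7:113207261-113207560, plus strand).
Ciart: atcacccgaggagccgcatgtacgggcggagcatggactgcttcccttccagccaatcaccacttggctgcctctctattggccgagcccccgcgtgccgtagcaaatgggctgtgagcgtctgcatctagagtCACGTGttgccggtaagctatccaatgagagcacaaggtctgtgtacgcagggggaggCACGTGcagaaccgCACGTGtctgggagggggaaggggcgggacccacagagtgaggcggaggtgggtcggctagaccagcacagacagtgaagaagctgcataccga
Per1: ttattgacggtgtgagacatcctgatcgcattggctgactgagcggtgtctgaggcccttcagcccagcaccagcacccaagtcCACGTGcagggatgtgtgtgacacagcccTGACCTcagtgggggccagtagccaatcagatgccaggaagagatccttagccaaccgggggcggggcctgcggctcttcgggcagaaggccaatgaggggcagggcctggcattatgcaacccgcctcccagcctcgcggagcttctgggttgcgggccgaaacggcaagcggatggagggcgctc
Per3: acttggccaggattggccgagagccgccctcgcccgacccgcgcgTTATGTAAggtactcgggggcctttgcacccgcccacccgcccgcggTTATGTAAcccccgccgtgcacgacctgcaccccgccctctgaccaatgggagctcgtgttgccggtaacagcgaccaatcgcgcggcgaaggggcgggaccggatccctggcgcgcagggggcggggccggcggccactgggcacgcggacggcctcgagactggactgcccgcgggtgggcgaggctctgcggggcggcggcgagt
Arntl: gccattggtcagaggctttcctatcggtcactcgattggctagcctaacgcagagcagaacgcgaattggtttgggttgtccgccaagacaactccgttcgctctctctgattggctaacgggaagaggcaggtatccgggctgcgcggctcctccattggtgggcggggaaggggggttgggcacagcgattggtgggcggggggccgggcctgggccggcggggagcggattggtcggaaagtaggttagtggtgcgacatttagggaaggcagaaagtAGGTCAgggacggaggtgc
Counted in bases from the transcription start, the E-boxes of Ciart began at -116, -58 and -44, the D-boxes of Per3 at -205 and -158, the E-box of Per1 at -166 and its RORE core, on the other strand, at -137. The RORE core of Arntl began at 31, in the transcribed part.

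**Figure D1:**
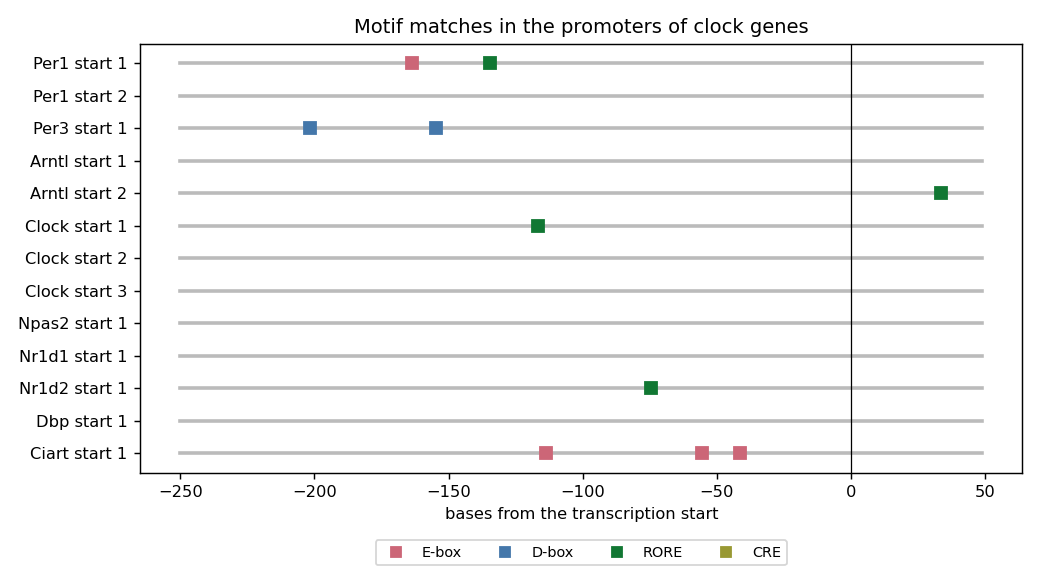
Matches to the E-box, D-box, CRE and RORE core (squares) along the promoters of 9 clock genes, with the distance from the transcription start in bases on the x axis and 1 grey line per annotated start. E-boxes are seen in Per1 and Ciart, D-boxes in Per3, and the RORE core in Per1, Arntl, Clock and Nr1d2.

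The table held raw read counts per transcript, and the libraries APP.3, APP.4, WT.1 and WT.2 held between 28525117 and 43881196 counts, fewer in both APP libraries than in either WT library. Counts were summed per gene and are given as CPM, the counts divided by the scaled library size in megareads, with TMM scaling. App, the mouse counterpart of the human APP transgene, was 2.87-fold higher in APP, and Prnp, whose promoter drives the transgenes, was 3.28-fold higher, each with both APP libraries above both WT libraries. In edgeR's quasi-likelihood test 179 of all genes, 0.991%, passed both cut-offs, an adjusted p under 0.05 and a 1.5-fold difference or more, and 1.29% passed the adjusted p. The APP libraries differed more from each other than the WT libraries did, with a chi-square per degree of freedom over genes of 30.7 against 5.46.

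None of the core clock genes differed between APP and WT beyond the error by both cut-offs. The number called was 0 of 10 by edgeR's quasi-likelihood, exact and likelihood ratio tests and by DESeq2. By the quasi-likelihood test 0 of 10 passed the adjusted p alone. An unadjusted p under 0.05 was seen for 2 of them, Per2 and Arntl, both lower in APP, as it was for 12.5% of all genes in either direction and 4.92% in this one. Log2 fold changes of APP over WT ran from -0.36 for Per2 to 0.13 for Ciart with a median of -0.12, against a median of -0.0012 over all genes, and 9 of the 10 were below 0, as were 50.3% of all genes and 57.5% of the 9332 genes with a mean of at least 10 CPM, to which all 10 belong. The 95% intervals of all 10 lay within a fold change of 1.5 in either direction, which held for 95.8% of the genes of at least 10 CPM and 61.9% of all genes. Both APP libraries were below both WT libraries for Per2, Per3, Arntl, Clock, Nr1d2 and Dbp, which is 6 of 10 genes, against 27.5% of the genes of at least 10 CPM and 21.4% of all genes. The reverse order was seen for 0 of 10, against 18.0% and 21.5%. In whole cortex, fewer cells of a type and less RNA per cell cannot be told apart.

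**Figure D2:**
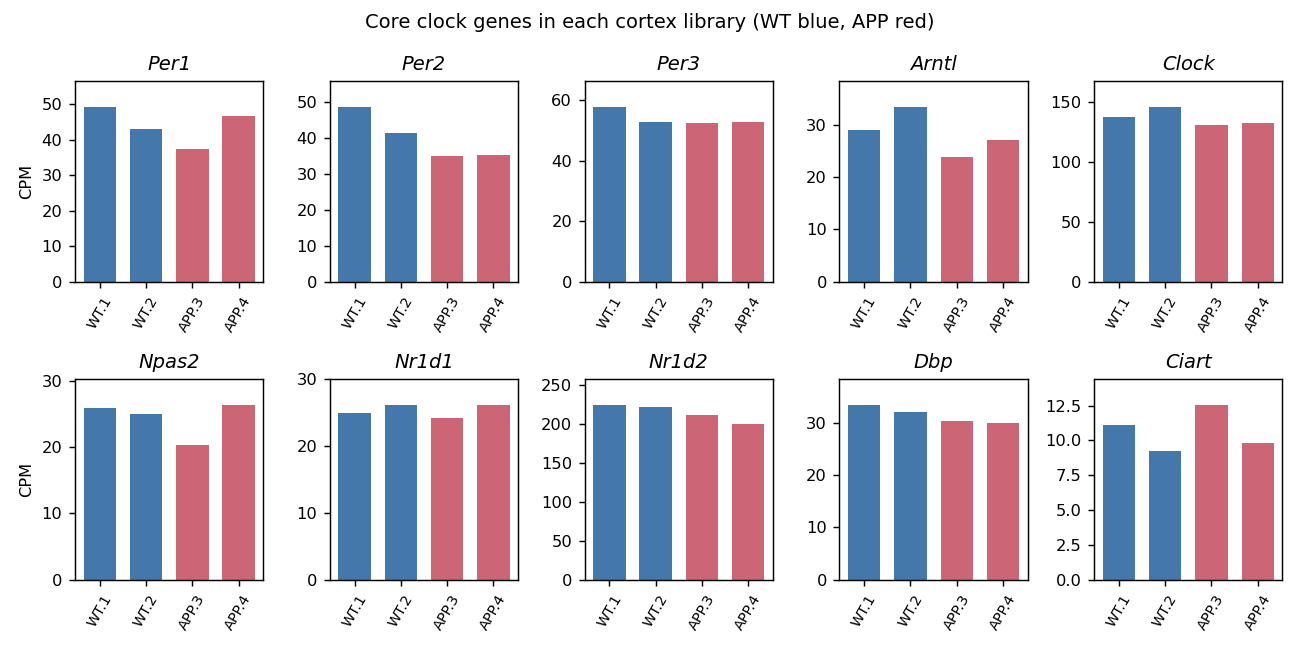
CPM of each of the 10 core clock genes (y axis, from 0) in the 4 libraries (x axis), 1 bar per library, WT in blue and APP in red. Per2 is at 34.9 and 35.3 CPM in APP and at 48.5 and 41.4 CPM in WT, while Nr1d1 lies between 24.1 and 26.1 CPM in every library.

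Of the Period genes, which encode the repressors of the loop, Per2 differed most. Per2 (chromosome 1, 91415982 to 91459324 in GRCm38) was covered by 1012 and 1093 reads in the APP libraries (APP.3, then APP.4) and by 2132 and 1467 in those of WT (WT.1, then WT.2), or 34.9 and 35.3 CPM against 48.5 and 41.4 CPM. The APP libraries were nearly equal and both below WT, and the WT libraries were further apart from each other. APP was at 0.780 times WT (95% interval 0.678 to 0.898), or -0.36 on the log2 scale, with a standard error of 0.090 and edgeR's adjusted p = 0.122. The adjusted p was 0.0299 with edgeR's exact test, 0.0275 with its likelihood ratio test and 0.0863 with DESeq2, and the fold change was below 1.5 in each of them. Leaving out APP.3 or APP.4 gave log2 values of -0.35 and -0.37, and leaving out WT.1 or WT.2 gave -0.24 and -0.46.

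Per1 (chromosome 11, 69095217 to 69109960), the Period gene that responds fastest to light and hormones, had 37.5 and 46.7 CPM in APP and 49.2 and 42.9 CPM in WT. The groups overlapped, since APP.4 was above WT.2. On the log2 scale APP differed from WT by -0.13, with a standard error of 0.11 and an adjusted p of 0.714 (edgeR). Leaving out APP.3 gave 0.018 and leaving out APP.4 gave -0.30. Per3 (chromosome 4, 151003652 to 151044665), which modulates the loop rather than sustaining it, had 52.3 and 52.6 CPM in APP and 57.6 and 52.9 CPM in WT. The APP libraries and WT.2 were nearly level, and WT.1 stood above them. The difference of Per3 was -0.076 ± 0.073 (standard error) on the log2 scale, with an adjusted p of 0.749.

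Of the REV-ERB genes, Nr1d1 was level between the groups and Nr1d2 was slightly lower in APP, and neither passed the test. Nr1d1 (chromosome 11, 98767932 to 98775333) had 24.1 and 26.1 CPM in APP and 24.9 and 26.1 CPM in WT. The groups overlapped fully, with a fold change of 0.985 (95% interval 0.861 to 1.13, adjusted p = 0.954). It shares 263 exon bases with Thra on the opposite strand, which had between 5655 and 8625 counts per library against 700 to 1093 for Nr1d1, and whether strand was used in counting is not given in the sources used here. Nr1d2 (chromosome 14, 18204054 to 18239127) was much more abundant, with 211 and 200.3 CPM in APP and 224 and 221 CPM in WT. Both APP libraries were lower, by less than the 1.5-fold cut-off, with a fold change of 0.924 (95% interval 0.840 to 1.02, adjusted p = 0.498).

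Of the output genes, Dbp had a lower and Ciart a higher mean in APP, and neither passed the test. Dbp (chromosome 7, 45705088 to 45710203) had 882 and 933 counts in APP and 1474 and 1141 in WT, or 30.4 and 30.1 CPM against 33.5 and 32.2 CPM. It shares 539 exon bases with Sphk2 on the opposite strand, which had between 197 and 352 counts per library. The libraries of each group lay close together, with SDs of 0.182 CPM in APP and 0.956 CPM in WT (n = 2 each). The fold change of 0.921 (95% interval 0.817 to 1.04) had an adjusted p of 0.584. Ciart (chromosome 3, 95878503 to 95882251) had 12.5 and 9.82 CPM in APP and 11.1 and 9.23 CPM in WT. It was the one gene of the 10 with a value above 0 on the log2 scale, 0.13 ± 0.15 (standard error), with an adjusted p of 0.798, and without APP.3 the value was -0.056 and without APP.4 it was 0.30. The spread of Ciart within each group was larger than the difference between the groups.

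Of the activators, Arntl differed most. Arntl (chromosome 7, 113207465 to 113314126) had 693 and 840 counts in APP and 1275 and 1181 in WT, or 23.9 and 27.1 CPM against 29.0 and 33.3 CPM. Both APP libraries were below both WT libraries. The fold change was 0.819 (95% interval 0.699 to 0.959), or -0.29 ± 0.10 (standard error) on the log2 scale, with an adjusted p of 0.264. Without APP.4 the value was -0.38, still under the 1.5-fold cut-off, and without WT.2 it was -0.18. Clock (chromosome 5, 76209868 to 76304792), a partner of ARNTL, had 131 and 133 CPM in APP and 137 and 146 CPM in WT. Its groups did not overlap, and its fold change was 0.932 (95% interval 0.845 to 1.03, adjusted p = 0.569). Npas2 (chromosome 1, 39193731 to 39363236), the paralog of Clock in forebrain, had 20.3 and 26.3 CPM in APP and 25.8 and 24.9 CPM in WT. APP.4 was the highest and APP.3 the lowest of the 4 libraries, and the difference of -0.12 ± 0.12 (standard error, log2 scale, adjusted p = 0.762) came to 0.053 when APP.3 was left out and to -0.32 when APP.4 was.

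**Figure D3:**
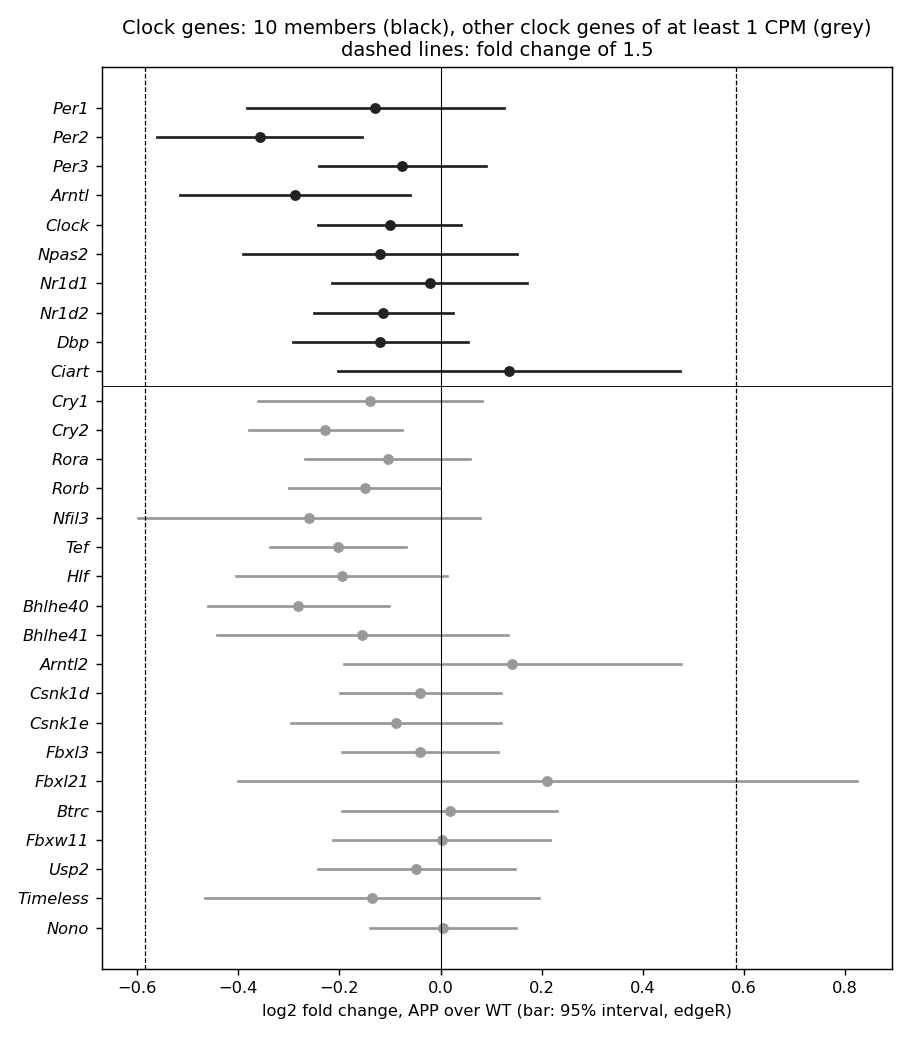
Log2 fold change of APP over WT (x axis) with its 95% interval from edgeR (bars) for the 10 core clock genes in black and the other clock genes with a mean of at least 1 CPM in grey; dashed lines mark a fold change of 1.5. All 10 black intervals lie between the dashed lines, and those of Per2 and Arntl lie wholly below 0.

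The targets and the activators of the loop were set side by side. Of the activators, an opposite peak is described above for Arntl only, so the means are no reading of phase. For each gene the log2 CPM was taken relative to its mean over the 4 libraries, and the values were averaged over the 7 genes Per1, Per2, Per3, Nr1d1, Nr1d2, Dbp and Ciart, and over the 3 activators. On this log2 scale the 7 genes were at -0.050 and -0.048 in the APP libraries and at 0.11 and -0.0099 in the WT libraries. The activators were at -0.18 and 0.0087 in APP and at 0.048 and 0.13 in WT. Both sets were thus lower in both APP libraries, with a difference of -0.098 for the 7 genes and -0.17 for the activators. The difference of the 7 genes was -0.039 without WT.1 and -0.16 without WT.2, and that of the activators -0.078 without APP.3 and -0.27 without APP.4, so that single libraries set its size. Within the 7 genes, WT.1 was above WT.2 by CPM for all but Nr1d1. Of the activators, Arntl and Clock were higher in WT.2 than in WT.1, while Npas2 was slightly lower. In APP, Per1, Npas2 and Arntl were higher in APP.4 than in APP.3, by 0.32, 0.37 and 0.18 on the log2 scale, while Ciart was at -0.35. For Per1, Npas2 and Ciart these differences between mice of 1 genotype exceeded those between the genotypes.

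**Figure D4:**
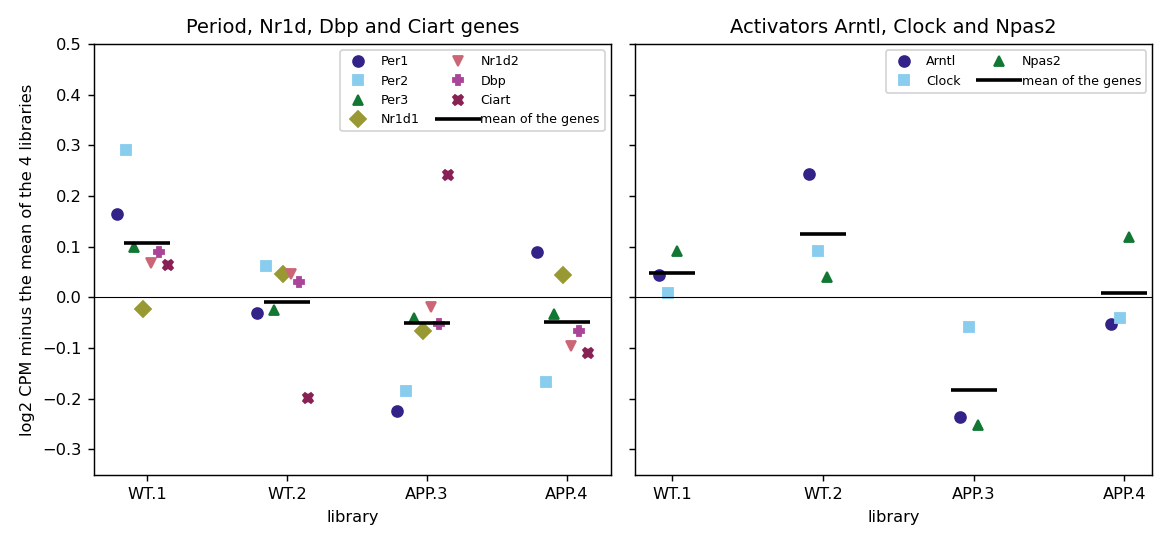
Log2 CPM of each core clock gene relative to its mean over the 4 libraries (y axis) by library (x axis), for the Period, Nr1d, Dbp and Ciart genes (left) and the activators (right), with 1 symbol per gene and a bar for the mean of the genes. Per1 and Ciart lie on opposite sides of 0 in APP.3 and APP.4, and Arntl is at -0.24 in APP.3 and 0.24 in WT.2.

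To compare genes with each other, counts were divided by transcript length and summed per gene, as CPM per kilobase. Nr1d2 had the highest level, 46.8 ± 2.22 (SD, n = 4 libraries), followed by Clock with 18.3 ± 0.870 and Dbp with 15.1 ± 0.777. These 3 genes did not overlap with each other or with the rest in any library. Arntl (9.74 ± 1.36), Per3 (9.57 ± 0.397), Per1 (9.56 ± 1.11), Nr1d1 (9.51 ± 0.399) and Ciart (7.97 ± 1.10) overlapped each with the next in this order, and so did Ciart with Per2 (6.86 ± 1.10) and Per2 with Npas2 (6.56 ± 0.819). The REV-ERB paralogs thus lay further apart in level than the Period paralogs did. A retained-intron transcript of Dbp, for which no length was held, is not in these values.

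Most of the reads of each gene fell on 1 protein-coding transcript, which took 98.9% of the counts of Nr1d2. Per2, Arntl and Clock were each counted on only 1 transcript, so their share of 100% was fixed in advance. The share was lowest in Per3. There the main coding transcript took 79.4%, a retained-intron transcript of 4909 bases took 16.0% and a transcript subject to nonsense-mediated decay 3.84%. The retained-intron share of Per3 was 17.2% and 18.5% in APP and 15.3% and 17.1% in WT, which nearly met and was not tested. In Dbp a retained-intron transcript took 12.5% and 11.04% in APP and 11.4% and 14.5% in WT, so that the groups overlapped. In a fit over single transcripts, 0 of the 21 were called. The only transcript of Per2, which holds the same counts as the gene, had a log2 fold change of -0.35 (adjusted p = 0.115 from edgeR).

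Of 20 other genes of the clock, which comprise the Cryptochromes, the ROR activators, the PAR bZIP factors, the BHLHE repressors, casein kinases and ubiquitin ligases, 0 were called by edgeR's quasi-likelihood, exact and likelihood ratio tests or by DESeq2. An unadjusted p under 0.05 was seen for 4, namely Cry2, Rorb, Tef and Bhlhe40, against 12.5% of all genes. Log2 fold changes were below 0 for 14 of the 20, with a median of -0.096. Both APP libraries were below both WT libraries for 7 of the 20 and above them for 0, against 21.4% and 21.5% of all genes and 27.5% and 18.0% of those of at least 10 CPM. Of the genes named by size, Bhlhe40, a repressor at E-boxes, had 81.4 and 75.4 CPM in APP and 101 and 89.6 CPM in WT (log2 fold change -0.28, adjusted p = 0.164). Cry2, a partner of the Period proteins, had 81.5 and 84.9 CPM in APP and 100.4 and 94.5 CPM in WT (log2 fold change -0.23, adjusted p = 0.184). Nfil3, the repressor at D-boxes, had 5.48 and 5.43 CPM against 7.08 and 5.95 CPM (log2 fold change -0.26, adjusted p = 0.532). Fbxl21, a ligase for Cryptochromes, had 2.93 and 5.10 CPM against 2.98 and 4.03 CPM, with groups that overlapped (adjusted p = 0.828).

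Inputs that act on Per1 and Per2 were read from lists of their other targets. Of 13 immediate-early genes, which respond to neuronal activity, 13 had a log2 fold change below 0 (median -0.48), and 2 were called lower in APP, against 0.0387% of all genes. Their summed level was 885 and 950.4 CPM in APP against 1253 and 1367 CPM in WT. The called genes were Arc, with 101 and 147 CPM in APP and 213 and 226 CPM in WT (adjusted p = 0.0304), and Dusp1, with 9.92 and 10.6 CPM against 15.0 and 16.1 CPM (adjusted p = 0.0325). Among those not called, Npas4, Egr2 and Fos had log2 fold changes of -0.91, -0.56 and -0.53 (adjusted p = 0.0734, 0.375 and 0.358), and Egr1, at -0.48, passed the adjusted p (0.0387) but not the fold change. Fos was at 15.4 CPM in APP.3 and 28.0 CPM in APP.4, the same order as Per1, while Per2 was nearly equal in these libraries. The part of neuronal activity in the levels of Per1 and Per2 was not tested.

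Of 12 glucocorticoid-responsive genes, 5 had a log2 fold change above 0 and 7 below it, and 1 was called. Pdk4, a kinase that inhibits pyruvate dehydrogenase, rose from 8.56 and 9.62 CPM in WT to 13.9 and 13.7 CPM in APP (log2 fold change 0.60, adjusted p = 0.0410), while 0.952% of all genes were called higher. Sgk1 had 114 and 105 CPM in APP against 90.3 and 95.8 CPM in WT (log2 fold change 0.24, adjusted p = 0.192), and Tsc22d3 94.4 and 76.7 CPM against 104 and 100.3 CPM (log2 fold change -0.26, adjusted p = 0.298). Nfkbia (log2 fold change 0.26, adjusted p = 0.315) and Cdkn1a (log2 fold change -0.24, adjusted p = 0.732) also pointed in different directions without passing. Of 8 genes coupled to body temperature, itself a daily rhythm, 7 had a log2 fold change below 0, against 50.3% of all genes, and 0 were called with edgeR. The list mixes heat shock genes with cold-inducible ones, so a shared sign is no reading of temperature. An unadjusted p under 0.05 was seen for 2, against 12.5% of all genes. Hspa1b had 3.34 and 4.68 CPM in APP against 6.30 and 5.16 CPM in WT (log2 fold change -0.52, adjusted p = 0.315), Dnajb1 a log2 fold change of -0.29 (adjusted p = 0.206), Hspa1a of -0.27 (adjusted p = 0.562) and Hsph1 of -0.11 (adjusted p = 0.561).

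**Figure D5:**
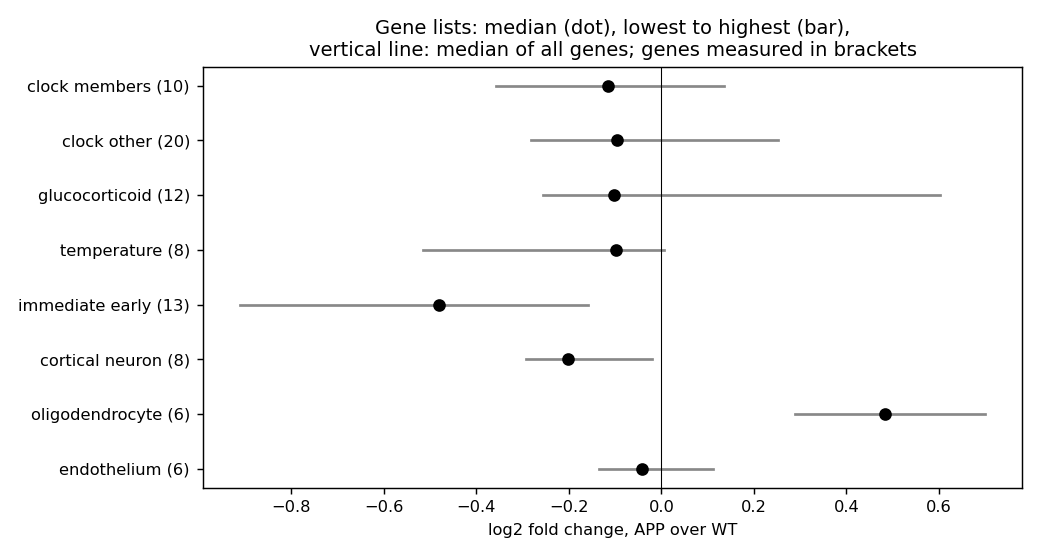
Log2 fold change of APP over WT (x axis) for gene lists (y axis, with the number of genes measured), with the median as a dot and a bar from the lowest to the highest gene; the vertical line is the median of all genes. The astrocyte, microglia, choroid plexus and suprachiasmatic lists, given by level in the text, are not drawn. The clock lists have medians of -0.12 and -0.096, the immediate-early genes of -0.48 and the cortical neuron markers of -0.20.

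Markers of cell types were compared, in which more cells and more RNA per cell cannot be told apart. Of 8 markers of cortical excitatory neurons, all were detected and 8 had a log2 fold change below 0 (median -0.20), with a summed level of 1314 and 1320 CPM in APP and 1497 and 1438 CPM in WT. This is the direction of most clock genes, and its part in their values was not tested. Summed markers of astrocytes (6 genes) were at 1637 and 1799 CPM in APP against 1211 and 1188 CPM in WT, those of microglia (8 genes) at 348 and 414 CPM against 213 and 209 CPM, and those of oligodendrocytes (6 genes) at 1758 and 1548 CPM against 1147 and 1271 CPM. The genes of a list did not rise alike. Log2 fold changes ran from 0.099 to 2.82 (median 0.23) for the astrocyte markers and from 0.30 to 8.69 (median 0.82) for those of microglia. The gene at 8.69 had few reads in WT and may have met the minimum of 10 counts, given below, only through APP. The sum, range and calls of the microglial list may be shaped by that minimum. Of the astrocyte, microglia and oligodendrocyte markers 2, 5 and 1 were called higher in APP, against 0.952% of all genes. With edgeR 0 of the neuronal, endothelial and choroid plexus markers were called, with 4, 0 and 0 at an unadjusted p under 0.05, against 12.5% of all genes. Endothelial markers (6 genes) lay between 71.0 and 76.1 CPM and choroid plexus markers (4 of 6 measured) between 5.28 and 7.62 CPM in every library. Of 16 markers of the hypothalamus, including the suprachiasmatic nucleus where the master clock resides, 9 were in the table. Nms, Prok2, Six6, Lhx1, Otp, Hcrt and Agrp were absent from it, so the list does not tell that nucleus from the rest of the hypothalamus. Avp was read 18 and 102 times in the APP libraries and 2 and 0 times in WT, Sim1 had 29 and 34 against 2 and 0, Oxt 12 and 22 against 0 and 1, and Trh 61 and 103 against 43 and 22. These 4 genes were called higher in APP (adjusted p from 0.00936 to 0.0465, edgeR), against 0.952% of all genes. Six3 (11 and 79 counts against 29 and 30), Rgs16 and Vip (log2 fold changes -0.38 and -0.33) were not called. Of the 9 genes, 7 had a log2 fold change above 0, with a median of 1.74. Both APP libraries were above both WT libraries for 6, against 21.5% of all genes. The table holds only genes of at least 10 counts, which Avp, Sim1 and Oxt reach only through the APP libraries. Their calls, and the counts and the median above, are therefore shaped by that minimum. The list summed to between 43.5 and 46.7 CPM in every library, most of it from Vip, which cortical interneurons also express. Without Vip, which was lower in APP, the other 8 genes summed to 11.3 and 14.7 CPM in APP against 6.83 and 7.19 CPM in WT. This sum includes Avp, Sim1 and Oxt and is shaped by the same minimum. The part of tissue from that region in the levels of the clock genes was not tested.

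The genes most like Dbp over the 4 libraries, by Euclidean distance of log2 CPM relative to the mean among 11292 other genes of at least 5 CPM, were Sh3bp5l (distance 0.0068), Pomk (0.0069), Zfp260 (0.0091), Golga1 (0.010) and Chd9 (0.011). Sh3bp5l had 25.2 and 24.9 CPM in APP and 27.7 and 26.6 CPM in WT. Of the clock genes themselves, Nr1d2 was nearest to Dbp at a distance of 0.053, with 223 other genes closer than it, and Per3 followed at 0.065 with 455 closer. Ciart was furthest, at 0.38, with 9923 closer. With 4 libraries and a narrow range of Dbp, such likeness describes these libraries only.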

How the data were processed

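RNA from the cortex of 2 APP and 2 WT mice underwent ribosomal RNA removal and strand-specific sequencing. The authors discarded pairs mapping to ribosomal RNA, aligned reads to the Ensembl mouse RNA database with FANSe2 and deposited raw read counts per transcript. The Ensembl release and the use of strand in counting are not given in the sources used here. The 4 deposited columns of log2 CPM, the authors' log2 fold change and log2 mean and the deposited p-values and FDRs of the authors' comparison were not used. WT columns were matched to mice by number and APP columns to their group.

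The deposited symbols vary in letter case, are absent for 8274 transcripts and give Ciart and Nr1d2 other names, so transcripts were assigned to genes by identifier in GENCODE M21 (98.2% matched) in place of the planned sum by symbol. A further 320 unmatched transcripts joined a gene by symbol, among them a transcript of Dbp, and 374 stood alone. All 18067 genes had at least 10 counts. Library totals had medians of 29959050 in APP and 39752212 in WT. Counts were compared in R 4.3.3 with edgeR 4.0.16 (quasi-likelihood test, TMM, no covariate, Benjamini-Hochberg adjustment over all genes, FDR under 0.05 and fold change of at least 1.5). Standard errors were derived from the fold change and its F statistic, and 95% intervals from these and the pooled degrees of freedom. Log2 CPM had a prior count of 2. With 2 mice per group, an exact permutation test of 1 gene cannot give a p below 0.333, so adjusted p-values rest on the spread shared between genes. Scripts used pandas 2.3.3 in Python 3.11.15 and were tested on simulated counts. Some listed genes are not reported here by name.

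The genes and lists were chosen with earlier results of these data known. Named genes are the 10 clock genes and, of the pathway and input lists, those called and otherwise up to 4 of largest log2 fold change at a mean of at least 1 CPM. Rorb and Tef were named after their values were seen. The alternatives were DESeq2 1.42.0, edgeR's exact and likelihood ratio tests, other scalings, filters and sums, and leaving out each library. Sums by deposited symbol and edgeR's earlier quasi-likelihood method were chosen once the data had been examined.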

Additional observations from a re-analysis of the deposited data

How the results depend on the processing

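The number of core clock genes and of other clock genes called was 0 under every alternative run, those with a library left out included. The number of all genes called, 179, was 354 with edgeR's exact test, 389 with its likelihood ratio test and 300 over single transcripts, and with a library left out it was 583 (without APP.3), 433 (without APP.4) and 67 (without WT.1 or without WT.2), where the lone library of a group is assumed to vary like the other group. The cause was not tested. The other alternatives with all 4 libraries gave between 151 and 229. Without APP.3 the log2 fold changes of Per1 (0.018), Npas2 (0.053), Nr1d1 (0.034) and Ciart (-0.056) changed sign, as did that of Nr1d1 without WT.2 (0.016), so that the direction of these 4 genes rests on single libraries. With a library left out, Per2 ran from -0.46 to -0.24 and Arntl from -0.39 to -0.18. Without APP.4, Per1 was at -0.30, Per2 at -0.37 and Arntl at -0.38, each less than a 1.5-fold difference. Of the 5 genes most like Dbp, 1 was also among the 5 of highest Pearson correlation. Removing no genes by count changed nothing, since every gene had at least 10 counts. No pairing of APP with WT mice is given in the sources used here, so no paired analysis was run. The columns of the APP libraries carry other numbers than the labels of the APP samples. The interval of Ciart was the widest of the 10 clock genes, and those of the sparse genes Nfil3 and Fbxl21 reached beyond a fold change of 1.5. The parts of depth and of spread between mice in these widths were not tested.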
